A study of Mus musculus with 6 samples.

Results

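The values described here are those of the 2 probe sets that carry the name Rnf213, 10383214 and 10383233, and of 13 unnamed probe sets whose identifiers run directly before the first of them, from 10383152 to 10383212. The 15 are all rows of the deposited table with an identifier from 10383152 to 10383214, plus any other row that the platform annotation names Rnf213, out of 28853 probe sets in all. The annotation does not list the 13, so they are called unnamed throughout, and whether they detect Rnf213 transcript was not tested. They were chosen with the genotype difference of these same arrays in view, so the differences below are a description and carry no test.

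Rnf213 encodes a very large cytosolic protein that joins a ring of ATPase modules to a ubiquitin ligase. The gene is induced by interferon, and the protein is known for binding Isg15, for attaching ubiquitin to the lipopolysaccharide of bacteria that reach the cytosol, where the ubiquitin coat can attract autophagy receptors, and for an association with lipid droplets. In people, variants of the gene are linked to moyamoya disease, a narrowing of arteries at the base of the brain.

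Expression was measured on 6 whole-transcript arrays of normal duodenum, 3 from Apc+/- mice and 3 from Apc+/-Atg7-/- mice, all of C57Bl6 background. Every animal thus lacks 1 functional copy of Apc, which restrains Wnt signalling, and the groups differ in Atg7, an enzyme required for autophagosome formation. The labels give no age, no allele, no driver that would limit the Atg7 loss to some cells, and no statement on pooling. Values are log2 signals, a difference of 1 standing for 2-fold, and p-values measure only the spread between these samples, which may be technical.

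The Atg7 probe set, as a check of the labels, read 7.16 ± 0.11 in the Apc+/- group and 6.63 ± 0.16 in the Apc+/-Atg7-/- group (SD, n = 3), with no overlap between the groups, and the difference of -0.53 did not pass over all probe sets (adjusted p = 0.239, limma). Array medians lay between 6.43 and 6.56, and Apc+/- replicate 1 had the lowest median and the lowest array weight (0.404). Apc+/-Atg7-/- replicate 1 carried the signal of a male, with Xist at 4.59 against 10.1 to 10.3 on the other 5 arrays. The mean of 10 enterocyte markers was 11.02 to 11.56 and that of 8 markers of proximal duodenum 7.54 to 8.04, and that of 7 pancreatic acinar markers 5.85 to 6.03, with no level set against another list's. Dissected duodenum holds many cell types, and fewer cells of a type cannot be told apart from less RNA per cell.

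The sequence at the start of Rnf213, a gene known to be induced by interferon, was searched for the element through which interferon acts on many genes. The search covered 250 bases before and 50 bases after the Rnf213 start that the RefSeq table gives for GRCm38.p6, and RefSeq's longest model of the gene begins upstream of that start. The interferon-stimulated response element holds GAAA, any 2 bases, and GAAA again (on the other strand TTTC, any 2 bases, TTTC). This core was absent from the Rnf213 window, and 3.44% of the 32851 promoters in the table hold it. Among 30 interferon-stimulated genes with a promoter in the table, 13 (43.3%) hold the core. A single GAAA or TTTC, present in 89.2% of all promoters, occurred once in the Rnf213 window. That match is in capitals in the first line, at chr11:119389939-119389968 on the plus strand. A single core is in capitals in each of the other lines, upstream of Ifit1 (chr19:34640775-34640804, plus strand), of Oas1a (chr5:120907526-120907555, minus strand) and of Isg15 (chr4:156200877-156200906, minus strand). The Oas1a and Isg15 lines each hold a further core that overlaps the marked one and is partly in small letters. Ifit1 and Oas1a are among the genes described below, and the Isg15 protein is a partner of Rnf213. Of other genes described below, the core was also absent from the windows of Oasl1, Mlkl and Herc6.
Rnf213: agagccagtgagaTTTCgaaggccgtgggc
Ifit1: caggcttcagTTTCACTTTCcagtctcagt
Oas1a: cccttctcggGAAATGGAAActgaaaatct
Isg15: tatgccgtagGAAAAGGAAAccgaaacaga
The Rnf213 window held 67.0% G or C and 27 CpG dinucleotides, against medians of 52.7% and 7 over all promoters. The absence of the core says only that these letters are not in this window.

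The main Rnf213 probe set, 10383214, was higher on every Apc+/-Atg7-/- array. It read 8.45, 8.76 and 8.60 on Apc+/- replicates 1, 2 and 3, and 9.44, 9.26 and 9.58 on Apc+/-Atg7-/- replicates 1, 2 and 3. The lowest Apc+/-Atg7-/- array stood 0.50 above the highest Apc+/- array, and the means differed by 0.82 (SE 0.12), a 1.77-fold higher level. The second Rnf213 probe set, 10383233, read 8.19, 8.31 and 8.31 in Apc+/- and 8.95, 8.87 and 9.19 in Apc+/-Atg7-/- duodenum, in the same replicate order. Its difference was 0.74 (SE 0.10), and its groups were likewise apart, by 0.57.

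All 15 probe sets were higher in Apc+/-Atg7-/- duodenum, by 0.37 to 1.17, and in 14 of the 15 the 3 Apc+/-Atg7-/- arrays lay above the 3 Apc+/- arrays. That pattern was found in 5.07% of all probe sets and in 3.53% of the 5443 that the annotation does not list. The median difference of the 13 unnamed probe sets was 0.88, or 1.85-fold, beside medians of -0.02 over all probe sets and -0.02 over those not listed. A difference of at least 0.5 was reached by 14 of the 15, and upward by 0.44% of all probe sets. Among all 28853, 13 of the 15 were within the 100 highest differences, with 10383214 at rank 41.

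**Figure D1:**
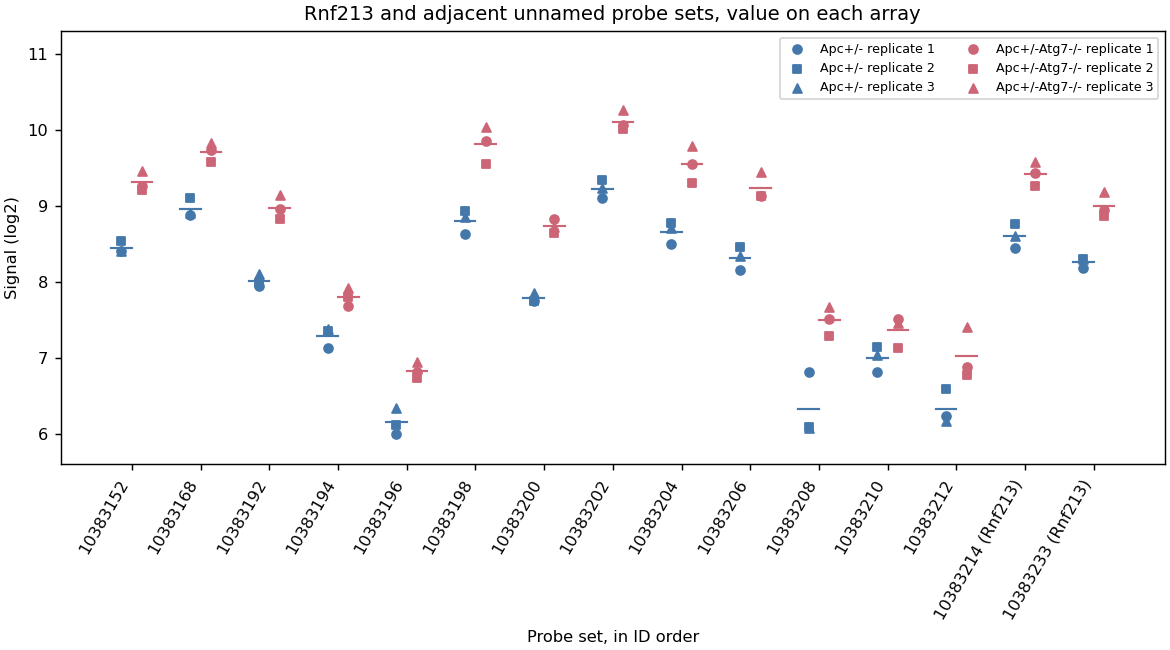
Signal (log2) of the 15 probe sets on each of the 6 arrays, in order of identifier, with Apc+/- arrays in blue, Apc+/-Atg7-/- arrays in red, symbols for replicates and short lines for the means of 3. The red points lie above the blue ones in 14 probe sets, and overlap in 10383210 alone.

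Probe sets of the run differed in how far they moved. The first, 10383152, read 8.41, 8.54 and 8.41 in Apc+/- replicates 1 to 3 and 9.26, 9.21 and 9.47 in Apc+/-Atg7-/- replicates 1 to 3, a difference of 0.86 (SE 0.10). The next, 10383168, went from 8.88, 9.11 and 8.91 to 9.73, 9.58 and 9.83, a difference of 0.75 (SE 0.10). Both had the 3 Apc+/-Atg7-/- values well clear of the Apc+/- ones, by 0.67 and 0.47.

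Probe sets 10383192, 10383198 and 10383200 differed by about 2-fold. In 10383192 the Apc+/- values were 7.95, 7.99 and 8.11 and the Apc+/-Atg7-/- values 8.96, 8.83 and 9.15, a difference of 0.96 (SE 0.10). In 10383198 they were 8.63, 8.93 and 8.85 against 9.86, 9.56 and 10.04, which is 2.02-fold higher. The groups of 10383200 were the farthest apart of the 15, by 0.79, with 7.75, 7.76 and 7.86 against 8.83, 8.65 and 8.73. This last probe set was 1 of 2 in which Apc+/-Atg7-/- replicate 1, and not replicate 3, had the highest value.

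Probe sets 10383202, 10383204 and 10383206 differed by 0.88, 0.89 and 0.92 (SE 0.10, 0.13 and 0.12). Apc+/- arrays read 9.11, 9.34 and 9.23 in the first, 8.50, 8.77 and 8.71 in the second and 8.16, 8.46 and 8.34 in the third. The Apc+/-Atg7-/- arrays read 10.06, 10.01 and 10.27, then 9.55, 9.31 and 9.79, then 9.13, 9.14 and 9.44. In each of them Apc+/- replicate 1 was lowest and Apc+/-Atg7-/- replicate 3 highest.

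Smaller differences were found in 10383194 and 10383196. The former went from 7.13, 7.35 and 7.38 to 7.69, 7.81 and 7.92 (0.52, SE 0.10). The latter went from 6.00, 6.12 and 6.34 to 6.81, 6.73 and 6.95 (0.68, SE 0.11). Their groups did not overlap, with gaps of 0.31 and 0.40.

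The last 3 unnamed probe sets before the Rnf213 row hold both the largest and the smallest difference. In 10383208 Apc+/- replicate 1 read 6.81 while replicates 2 and 3 read 6.09 and 6.08, the widest spread of any group here (SD 0.42). The Apc+/-Atg7-/- arrays read 7.52, 7.29 and 7.67, so the largest difference of the 15 (1.17, SE 0.20) also had the largest error. Probe set 10383210 had the smallest difference (0.37, SE 0.13), and Apc+/- replicate 2, at 7.14, reached Apc+/-Atg7-/- replicate 2, at 7.14, with the other arrays at 6.81 and 7.05 against 7.52 and 7.46. Its neighbour 10383212 read 6.23, 6.60 and 6.17 against 6.89, 6.78 and 7.41 (0.69, SE 0.18), apart by 0.19.

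The named neighbours in identifier order did not share the difference. Directly before the run, the Slc26a11 probe set (10383133) read 6.21, 6.42 and 6.34 in Apc+/- and 6.14, 6.21 and 6.45 in Apc+/-Atg7-/- arrays, a difference of -0.06 (SE 0.11), and before it Card14 (10383109) differed by -0.16 (SE 0.10). Directly after the second Rnf213 probe set, Endov (10383235) read 6.31, 6.40 and 6.35 against 6.43, 6.38 and 6.31, a difference of 0.02 (SE 0.08), followed by Rptor (10383245) at -0.05 (SE 0.09). In all 4 of these the genotypes overlapped.

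**Figure D2:**
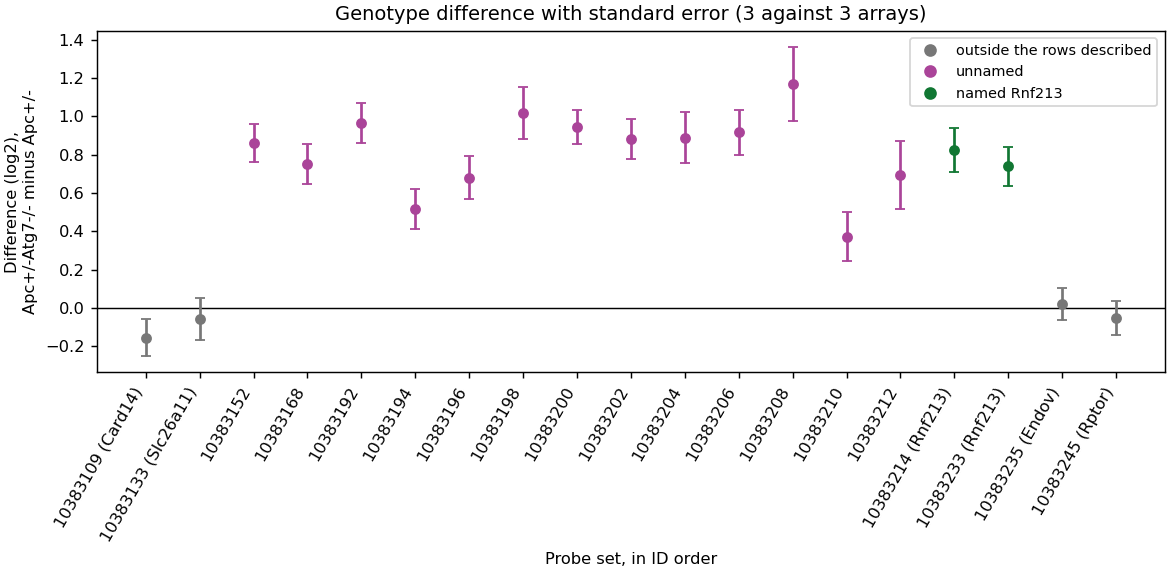
Difference between genotypes (log2, Apc+/-Atg7-/- minus Apc+/-, 3 arrays each) with limma's standard error for the 15 probe sets and the 2 on either side, in order of identifier. The 15 lie between 0.37 and 1.17, and the 4 outside lie between -0.16 and 0.02.

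In the fit over all 28853 probe sets by limma, 23 were called higher (0.0797%) and 16 lower (0.0555%) at an adjusted p under 0.05, 0.135% in all, and 9 of the 23 were probe sets of this run, 7 of them unnamed. Of the probe sets not listed in the annotation, 8 (0.147%) were called higher, so 1 unlisted call lay outside the run. Because the run was chosen on this contrast, nothing is read from the count of 9 or from the counts of the run that follow. The 9 fell to 2, 0 and 0 without Apc+/- replicates 1, 2 and 3, and to 0, 4 and 0 without Apc+/-Atg7-/- replicates 1, 2 and 3. In each of these 6 fits by limma 14 or 15 of the 15 were under an unadjusted p of 0.05. Calls over all probe sets, 39 with 6 arrays, were 19, 9 and 0 without those Apc+/- arrays in turn and 1, 29 and 5 without the Apc+/-Atg7-/- arrays (1030 to 3373 at an unadjusted p under 0.05). With 1 array left out the difference of 10383214 ran from 0.75 to 0.91, and without the male array it was 0.82.

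Each of the other 14 probe sets was also set against 10383214 on the same array. The log ratio of each to 10383214 was compared between genotypes, and in 10 of them the groups overlapped. The share of such ratios without overlap was not taken over all probe sets, so nothing is read from these counts. In 2 the ratio was higher on all 3 Apc+/-Atg7-/- arrays, by 0.14 in 10383192 and by 0.19 in 10383198. For 10383192 the groups nearly met, at -0.496 on the highest Apc+/- and -0.472 on the lowest Apc+/-Atg7-/- array. In 2 more the ratio was lower on all 3, by 0.31 in 10383194 and by 0.45 in 10383210, whose ratio went from -1.60 ± 0.04 to -2.05 ± 0.12 (SD, n = 3). In 10383208 the mean ratio was 0.35 higher, but it varied among Apc+/- arrays from -2.67 to -1.63 and the groups overlapped.

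The probe sets also varied together across arrays. Over the 6 arrays Pearson's r with 10383214 was 0.837 to 0.997 for the 13 unnamed probe sets, with a median of 0.98, and 0.99 for the second Rnf213 probe set. An r over 0.9 was found for 12 of the 13 unnamed and for 0.638% of the 28838 other probe sets, whose median was -0.01. Over the 105 pairs within the run the median r was 0.96, from 0.62 between 10383208 and 10383210 to 0.999 between 10383198 and 10383204. These values hold the genotype difference that chose the run and are shared by probe sets read from the same arrays.

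Taking out each genotype mean left the variation among the 3 arrays of a group. The median r over the 105 pairs was then 0.72 (0.74 after a further quantile normalization), and with 10383214 the unnamed probe sets had a median of 0.88. Such an r with 10383214 exceeded 0.5 in 11 of the 13, but also in 31.7% of the other probe sets, whose median was 0.15. The highest were 10383198 (0.97), 10383168 (0.96) and 10383202 (0.96). Lowest was 10383208 at -0.25, in which Apc+/- replicate 1 was high, and it gave the lowest pair as well, -0.60 with 10383194. Apc+/-Atg7-/- replicate 3 was the highest of its group in 13 of the 15 probe sets, replicate 2 was the lowest of that group in 13 that were not all the same ones, and Apc+/- replicate 1 was the lowest of its group in 13.

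**Figure D3:**
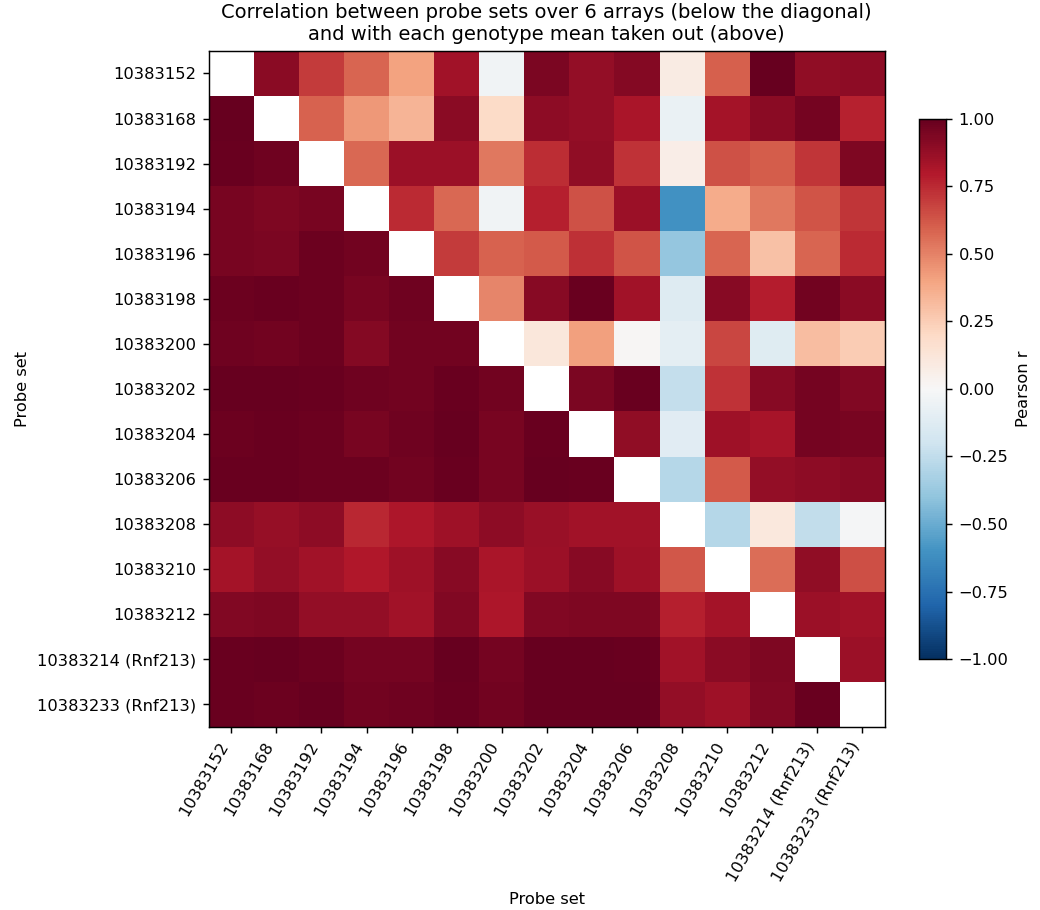
Pearson's r between each pair of the 15 probe sets, over the 6 arrays below the diagonal and with each genotype mean taken out above it, from -1 (blue) to 1 (red). Below the diagonal r is 0.62 or more, and of the 14 values under 0 above it 3 do not involve 10383208.

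That order among arrays was shared with smooth muscle markers, which went the other way between genotypes. The mean of 8 markers, which include the contractile genes Acta2 and Myh11, was 8.17, 8.78 and 8.63 in Apc+/- replicates 1 to 3 and 8.28, 7.67 and 8.54 in Apc+/-Atg7-/- replicates 1 to 3. With genotype means taken out it correlated with 10383214 at r = 0.97 over the 6 arrays, whereas with them left in r was -0.23. The 0.97 was the highest of the list means, followed by fibroblast (0.77) and B and plasma cell markers (0.69), and enterocyte markers were lowest (-0.53). Among the single probe sets outside the run, 459 had such an r of 0.95 or more. All 8 markers were lower in Apc+/-Atg7-/- duodenum without passing (0 called by limma, 1 lower at an unadjusted p under 0.05), with a median of -0.35. Over all 28853 probe sets 0.135% were called and 1398 were under that unadjusted p in either direction. Array medians had partly the same order. They were 6.43, 6.56 and 6.54 in Apc+/- replicates 1 to 3 and 6.47, 6.47 and 6.51 in Apc+/-Atg7-/- replicates 1 to 3. The part of the muscle markers or of the array medians in the spread of the Rnf213 values was not tested.

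Of the other marker lists, no member passed the test. None of the 10 enterocyte, 8 proximal duodenum, 9 T cell and innate lymphoid, 7 B and plasma cell, 9 macrophage and dendritic cell, 8 endothelial, 7 fibroblast or 7 pancreatic acinar markers was called by limma in either direction. At an unadjusted p under 0.05 there were 2 lower enterocyte markers and 1 higher marker of proximal duodenum. Over all 28853 probe sets 0.135% were called and 1398 were under that unadjusted p in either direction. That no marker was called is therefore not read as a result. Median differences were -0.13, 0.18, -0.14, -0.12, -0.11, -0.005, -0.03 and -0.03 in that order. Of these lists the pancreatic acinar one alone had means that did not overlap, at 5.99 to 6.03 in Apc+/- and 5.85 to 5.98 in Apc+/-Atg7-/- arrays, and all 8 proximal duodenum markers were higher, with overlapping means. The part of any of these cells in the Rnf213 difference was not tested.

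Likeness to 10383214 was ranked among the 368 named genes whose values spanned at least 1 over the arrays, a limit that favours genes with a large genotype difference. Without that limit Dcaf13, Nlrc5 and Rasef, named after their values were seen, had a slightly higher r (0.9943, 0.9936 and 0.9924) than the first gene within it (0.992). Within it Oasl1, of the oligoadenylate synthetase family, came first with r = 0.99 over the 6 arrays, and it kept r = 0.98 with genotype means taken out. It read 8.01, 8.24 and 8.18 in Apc+/- and 9.27, 9.12 and 9.40 in Apc+/-Atg7-/- arrays, the same order within both groups as Rnf213. Of the unnamed probe sets, 4 had a higher r with 10383214 than Oasl1. The next were Rtp4, a chaperone of receptors (r = 0.98), Oas2, which makes oligoadenylates on sensing double-stranded RNA (0.97), Mx2, an antiviral GTPase (0.97), Mlkl, the pseudokinase of necroptosis (0.97), and Oas1a (0.97). With genotype means taken out these 5 had r of 0.72, 0.74, 0.58, 0.59 and 0.57.

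The 3 genes of the 368 with the lowest r were Lyz1, Itln1 and Defa24, each known as a product of Paneth cells, the antimicrobial cells of the crypt base. No list of Paneth cell genes was tested here, and the part of those cells in the Rnf213 values was not tested. Lyz1, a lysozyme, had r = -0.99 with 10383214, and read 12.3, 11.8 and 12.0 in Apc+/- and 11.2, 11.5 and 11.1 in Apc+/-Atg7-/- arrays. Its r was -0.99 with genotype means taken out as well, so within both groups it was high where Rnf213 was low. The lectin Itln1 (r = -0.99) and the defensin Defa24 (r = -0.97) followed, at -0.94 and -0.73 with genotype means taken out. Both of the latter fell (adjusted p = 0.00963 and 0.034, limma), and Lyz1 differed by -0.78 (adjusted p = 0.146).

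**Figure D4:**
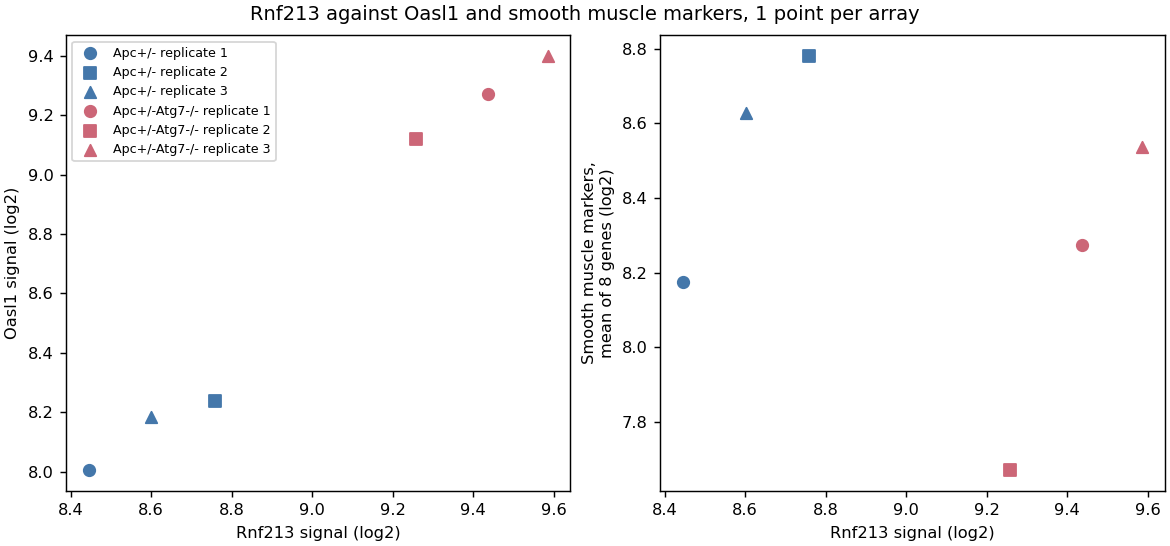
Signal of Rnf213 (probe set 10383214, log2, horizontal) against Oasl1 (left, log2) and against the mean of 8 smooth muscle markers (right, log2), 1 point per array, coloured by genotype with symbols for replicates. Oasl1 follows Rnf213 between and within genotypes (r = 0.99), while the muscle markers correlate with it at 0.97 once genotype means are taken out and at -0.23 otherwise.

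All 38 measured genes of a type I interferon list, which does not hold Rnf213, were higher in Apc+/-Atg7-/- duodenum. Of these, 8 rose and 0 fell with adjustment over all probe sets (0 lower also at an unadjusted p under 0.05, limma), against 0.0797% of all probe sets called higher. The median difference was 0.50, beside -0.02 over 19938 genes. In 31 of the 38 the 3 Apc+/-Atg7-/- arrays lay above the 3 Apc+/- arrays, a pattern found in 5.07% of all probe sets. The largest that passed were Ddx60, a helicase of RNA sensing (1.17, adjusted p = 0.0486), Ifit1, which binds foreign RNA (1.16, adjusted p = 0.0132), Oasl1 (1.12, adjusted p = 0.0132) and Herc6, the ligase that attaches Isg15 (1.02, adjusted p = 0.0155), all by limma. The list mean was 8.04 to 8.15 in Apc+/- and 8.58 to 8.80 in Apc+/-Atg7-/- arrays. Without Apc+/- replicates 1, 2 and 3 the count that rose was 3, 1 and 0, and without Apc+/-Atg7-/- replicates 1, 2 and 3 it was 0, 5 and 1. In these fits 28 to 32 were higher at an unadjusted p under 0.05 by limma, beside 1030 to 3373 of all 28853 probe sets in either direction.

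Not all interferon-stimulated genes followed Rnf213 within genotypes. Over the 6 arrays the median r of the 38 with 10383214 was 0.90, beside -0.02 for all genes, but with genotype means taken out it was 0.18, beside 0.17 for all genes. Ifit1, for example, had r = 0.89 in the first form and -0.75 in the second, and Herc6 0.93 and -0.04. Oasl1, at 0.98, was the highest of the 38 in the second form.

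Of the enzymes that handle ubiquitin and Isg15 in the interferon response, all 17 measured were higher, with a median of 0.24. Herc6 alone rose over all probe sets. At an unadjusted p under 0.05 by limma 7 were higher and 0 lower, beside 1398 of 28853 probe sets in either direction. Herc6, Usp18, Trim25, Dtx3l and Parp9 are also on the interferon list above, so this list is not independent of it. The Isg15 protease Usp18 differed by 0.76 (SE 0.13, adjusted p = 0.118), with 3 arrays near 9.03 ± 0.003 (SD, n = 3) in Apc+/-Atg7-/- against 8.27 ± 0.27 in Apc+/- duodenum. Herc6 was not called without Apc+/- replicate 1, 2 or 3 or Apc+/-Atg7-/- replicate 1 or 3, where 0 of the 17 passed and 3 to 7 were higher at an unadjusted p under 0.05. In those fits 1030 to 3373 of all 28853 probe sets were under that p in either direction.

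Genes for the ubiquitin coat of bacteria and the receptors that read it were mixed. Of 18 measured, which include the autophagy receptors Sqstm1, Tax1bp1 and Nbr1 and the linear ubiquitin ligase Rnf31, 11 were higher and 7 lower, with a median of 0.05. The list mean did not overlap, at 8.328 to 8.427 in Apc+/- and 8.457 to 8.535 in Apc+/-Atg7-/- arrays. Of the 18, 3 had the 3 Apc+/-Atg7-/- arrays above the 3 Apc+/- arrays and 0 below, beside 5.07% of all probe sets above. Irgm1, an immunity-related GTPase, alone rose (0.999, SE 0.12, adjusted p = 0.0216, limma). Gbp7, a guanylate-binding protein, differed by 0.51 (SE 0.13, adjusted p = 0.583). Irgm1 and Gbp7 enter the list mean above, and a mean without them was not taken. Sqstm1, Tax1bp1, Nbr1 and Rnf31 differed by -0.04, 0.06, 0.09 and 0.13. No member fell (0 also at an unadjusted p under 0.05). Irgm1 was not called without Apc+/- replicate 2 or 3 or Apc+/-Atg7-/- replicate 1 or 3, where 0 of the 18 passed and 2 were higher at an unadjusted p under 0.05. In those fits 1030 to 1455 of all 28853 probe sets were under that p in either direction.

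No lipid droplet gene passed the test. Of 20 measured, 3 were higher and 17 lower, with a median of -0.06, beside -0.02 over all genes. By limma 0 passed (1 lower and 0 higher at an unadjusted p under 0.05). Over all 28853 probe sets 0.135% were called and 1398 were under that unadjusted p in either direction. The counts of this list are therefore not read as a result. Cidec, which enlarges lipid droplets, had the smallest p (-0.43, SE 0.14, adjusted p = 0.879), followed by Cidea of the same family (-0.30, SE 0.14, adjusted p = 0.983).

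No gene beside Rnf213 on chromosome 11 passed the test. In the RefSeq order of GRCm38.p6 the nearest named genes with a probe set are Slc26a11, a sulphate transporter, on one side and Endov, an endonuclease, on the other, the same genes that bound the run in identifier order. Of the 10 nearest on each side, 5 were higher and 15 lower, with a median of -0.06, beside -0.02 over all genes. By limma 0 passed (1 at an unadjusted p under 0.05, lower). Over all 28853 probe sets 0.135% were called and 1398 were under that unadjusted p in either direction. The counts of the neighbours are therefore not read as a result. In 19 of the 20 neighbours the difference lay between -0.19 and 0.14. The exception was the outermost, Enpp7, the brush border sphingomyelinase, which read 9.05, 9.61 and 9.23 in Apc+/- and 8.12, 8.21 and 6.82 in Apc+/-Atg7-/- arrays, a difference of -1.58 (SE 0.33, adjusted p = 0.281, limma) in the direction opposite to Rnf213.

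**Figure D5:**
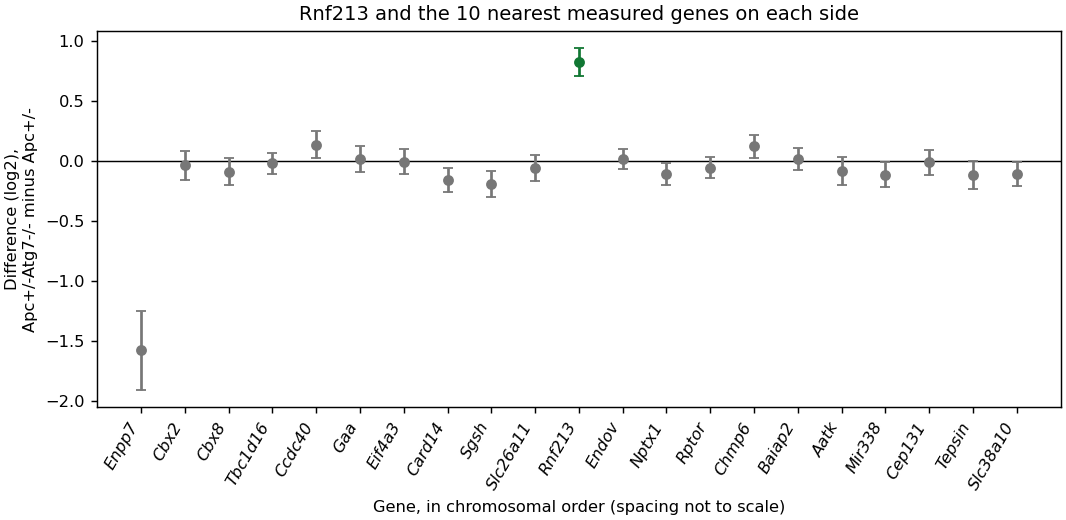
Difference between genotypes (log2, Apc+/-Atg7-/- minus Apc+/-, 3 arrays each) with limma's standard error for Rnf213 (10383214) and the 10 nearest measured genes on each side in RefSeq order, spacing not to scale. Rnf213 stands at 0.82, Enpp7 at -1.58, and the other 19 between -0.19 and 0.14.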

How the data were processed

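Trizol RNA of duodenum was converted to biotinylated cDNA and read on 6 Affymetrix whole-transcript arrays, as the labels' protocols state. The authors deposited 1 log2 value per probe set and array, made with RMA and Partek (versions and settings not given in the sources used here), per the submitters' processing notes. The log base was read from the values, 2.40 to 13.3. Precision is limited by the number of arrays, 3 in each group. RMA equalises arrays and compresses differences of dim probe sets, and levels of different probe sets are not comparable.

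Of 28853 probe sets, 21789 name 1 gene, 1621 several, and 5443 are not listed in the platform annotation. Every probe set was fitted with limma 3.58.1 in R 4.3.3 (lmFit, eBayes, two-sided, Benjamini-Hochberg adjustment over all), as Apc+/-Atg7-/- minus Apc+/-, and the fit was tested on simulated data. Lists take the probe set with the highest mean per gene. Members, lists and tests were chosen with earlier results of these data known. Apart from examples of list members and genes stated to be named after their values were seen, genes were named by rule: the 15 probe sets and 2 on each side, the 6 most and 3 least like Rnf213, up to 4 called members per list or the 2 with the smallest p, the nearest neighbours, and neighbours past the threshold or differing by at least 1. Alternatives were a replicate block, quantile normalization, centring, trend and robust moderation, array weights, removal of probe sets under a mean of 5, 1 probe set per gene, Spearman, and leaving out each array.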

Additional observations from a re-analysis of the deposited data

How the results depend on the processing

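The differences of the 15 probe sets kept their direction under all alternatives run, and the 14 besides 10383214 ranged from 0.28 to 1.41 over them. What changed was which passed an adjusted p. The run was chosen on this contrast, so its counts are given as description only. Of the 15, 9 passed as reported, 5 with a replicate block, 4 after a further quantile normalization, 11 with arrays centred, 10 with trend and robust moderation, 10 with array weights, 9 without dim probe sets, and 0 to 4 with 1 array left out. The cause was not tested. The labels do not say whether the replicate numbers pair the arrays. Same-numbered deviations correlated at 0.15, -0.10 and 0.17, and differently numbered ones at -0.29 to 0.19, which cannot decide it with 3 arrays per group. The block gave 43 calls over all probe sets against 39. With 1 probe set for each gene 22 passed, 14 higher and 8 lower, of fewer tested, a setting that gives no value for the unnamed probe sets. With 1 array left out the calls ran from 0 to 29, with 0 to 13 higher and 0 to 16 lower (1455 at an unadjusted p under 0.05 by limma where 0 passed). Without Apc+/- replicate 3 no probe set passed, and without the male array 1 did. With 1 array left out the interferon-stimulated genes that rose, 8 as reported, ran from 0 to 5, and those of the ubiquitin and Isg15 list and of the ubiquitin coat list from 0 to 1 each. Under the other alternatives 7 to 11 interferon-stimulated genes rose, and trend and robust moderation gave 2 for the ubiquitin and Isg15 list. The median r with genotype means removed ran from 0.66 to 0.87 with 1 array left out. Centring the arrays moved the median of all probe sets from -0.02 to 0.01.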
